A study of Mus musculus with 6 samples.

Results

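Kinesin motor genes were examined for Onecut3 peaks in a ChIP-Seq experiment on mouse embryonic fibroblasts (MEFs). The family was taken as every protein-coding gene whose symbol is Kif followed by a digit in a RefSeq gene table of the GRCm38.p6 build, which gave 38 genes of 21887. By their textbook roles, 13 were grouped as mitotic, 13 as transport and 12 as other kinesins. The cells were C57BL/6 MEFs without functional p53 (p53 KO), the genotype of every library. They carried FLAG-tagged Onecut3, a CUT homeobox transcription factor, under a retroviral Tet-One system, so Onecut3 came from a transgene that doxycycline switches on. The ONECUT3-OE cells received doxycycline at 100 ng/ml and the control cells received none. Peak lists of the 3 ONECUT3-OE libraries precipitated with the anti-FLAG antibody were used. The control FLAG library, the IgG library and the input library, 1 of each, were not analysed here, so FLAG signal in cells without induced Onecut3 has not been taken off.

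Kinesins are motor proteins that use ATP to move along microtubules or to take microtubules apart. Mitotic kinesins build and position the spindle, align chromosomes and organise the midzone at which a dividing cell is cut apart. Transport kinesins carry vesicles, organelles and ciliary components along microtubules in interphase cells. Others act in cilia, in signalling or on microtubule ends.

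The lists held 31600, 12856 and 24822 peaks in replicates 1, 2 and 3. Read numbers are not in the lists, so the depth is unknown. Each peak carries a fold, which is the ChIP signal at the summit over the expected background, and a q-value, both of which compare 1 library with its control and not 1 condition with another. Overlapping peaks were merged, and 5114 of 50844 merged regions had a peak in all 3 lists. These are called shared regions below. At shared regions the median fold was 3.94, 4.18 and 4.05 in replicates 1, 2 and 3, against 3.02, 3.36 and 3.13 at regions of a single list. The lists hold no expression values, so the fibroblast identity of the cells and the induction of Onecut3 could not be checked in them. The labels do not say whether the replicates were separate cultures, and a p-value below therefore measures only the spread between these samples, which may be technical.

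A shared region lay inside a kinesin gene or within 3 kb of it at 9 of 38 members (23.7%), where 11.5% of all protein-coding genes had one. They were the mitotic kinesins Kif11, Kif14 and Kif23, the transport kinesins Kif1b, Kif13a and Kif16b, and Kif6, Kif24 and Kif26b among the others. The 3 classes therefore had nearly the same count, 3 of 13, 3 of 13 and 3 of 12. A peak of at least 1 list was found in the same windows at 26 members (68.4%), against 45.5% of all genes. Most of the shared regions lay deep in the gene. Counted at the gene ends alone, within 3 kb of either end, 4 members had a shared region (10.5%), against 5.32% of all genes. Counted from the RefSeq start sites of the 31 members in the promoter table, it was 2 (6.45%), against 4.35% of the genes in that table. The count inside or within 3 kb depended on the library that was left out. With a region required in both remaining lists, it was 9 without replicate 1 (all genes 13.8%), 14 without replicate 2 (17.2%) and 12 without replicate 3 (14.7%). The count was highest without replicate 2, the library with the fewest peaks. Kif2a, Kif4, Kif21a, Kif1c and Kif5c were the members added then.

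**Figure D1:**
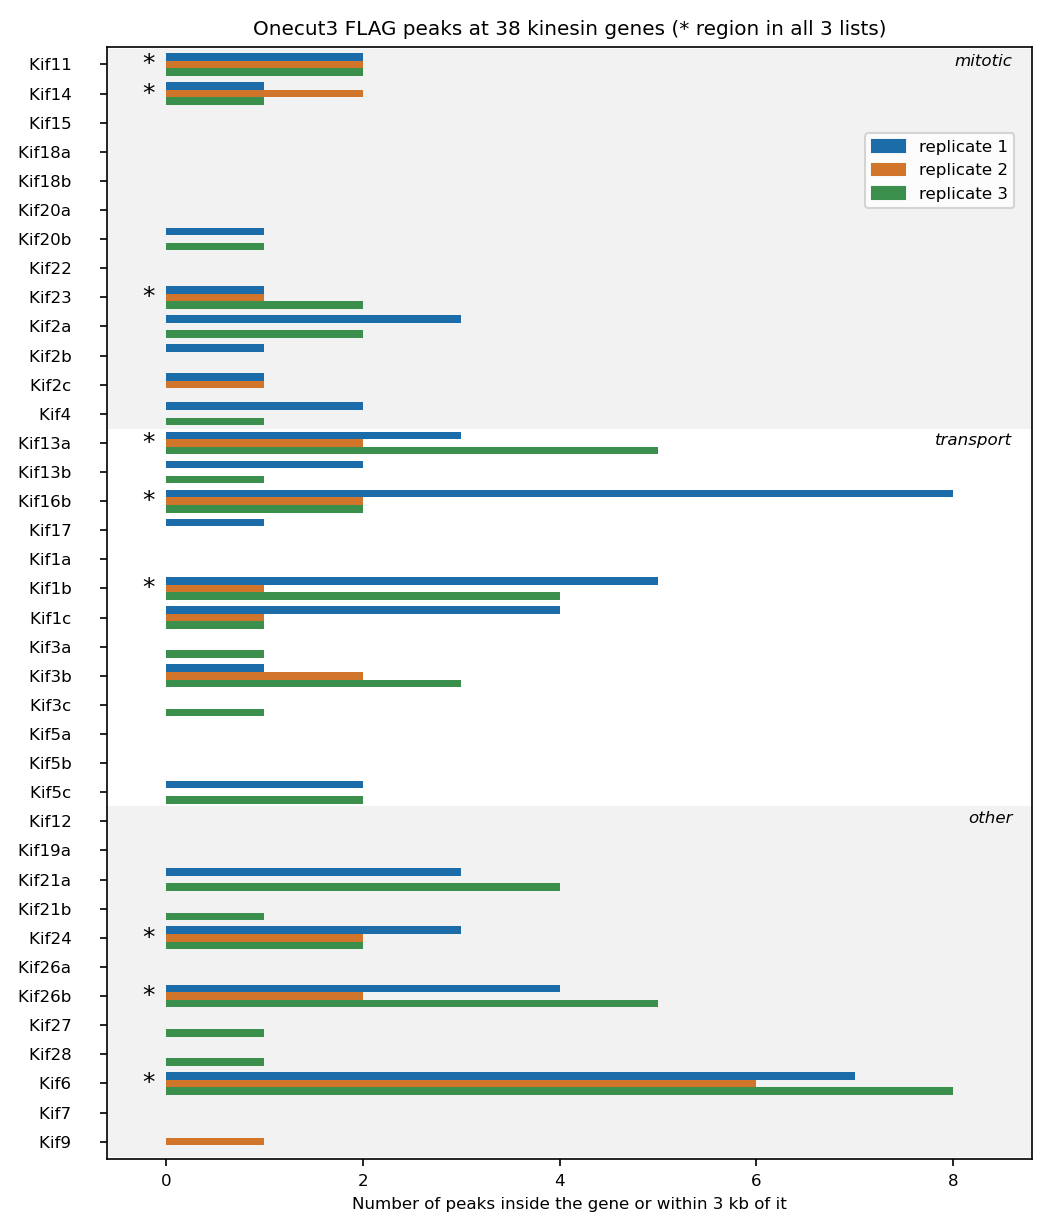
Number of peaks inside each of the 38 kinesin genes or within 3 kb of it (horizontal axis) in replicates 1, 2 and 3 (coloured bars), with genes grouped by class (shading). A star marks the 9 genes with a shared region, and Kif6 and Kif16b had the most peaks in 1 list, 8 each.

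Kinesin genes are long, with a median length of 47.5 kb against 17.2 kb for all protein-coding genes, and the count inside genes followed length. A shared region lay inside 7 members (18.4%), against 9.53% of all genes. Among members under 30 kb it was 0 of 9, where 3.77% of all genes of that length had one. Among members of 30 to 100 kb it was 2 of 20 (10.0%), beside 13.1% of all such genes. Among members over 100 kb it was 5 of 9 (55.6%), beside 36.2%. The members over 100 kb with a shared region inside were Kif1b, Kif13a, Kif16b, Kif6 and Kif26b, and the shorter ones were Kif11 and Kif24. Per length of gene, 11 shared regions in the family made 3.59 per Mb, against 2.63 per Mb over all genes. The 11 became 21 without replicate 2, where a region needed a peak in both remaining lists only. That change also raised the share of all genes with a region inside or within 3 kb, from 11.5% to 17.2%. The matching density over all genes was not counted.

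**Figure D2:**
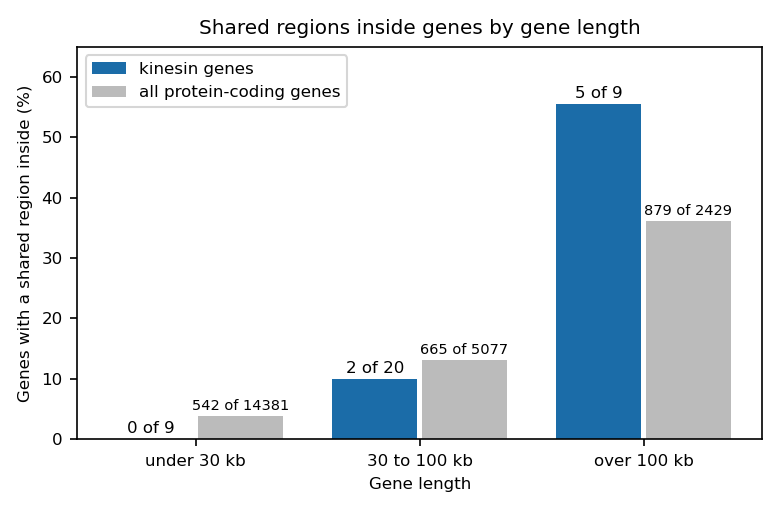
Percent of genes with a shared region inside (vertical axis) by gene length (horizontal axis) for kinesin genes and for all protein-coding genes, with the counts above the bars. The kinesin share was 0 of 9 under 30 kb, 2 of 20 from 30 to 100 kb and 5 of 9 over 100 kb.

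Among mitotic kinesins, Kif11 had shared regions inside the gene, and Kif14 and Kif23 had one just past their 3′ ends. Kif11, also known as Eg5, pushes the spindle poles apart. Its gene is at chr19:37376382-37421863 on the plus strand and held 2 peaks in each list. The first region, at chr19:37391932-37392349 and 15.8 kb from the start site, had folds of 2.69, 3.33 and 5.30 in replicates 1, 2 and 3. Its q-values were 0.187, 0.00603 and 9.61e-09, so replicate 3 was high and replicate 1 did not pass 0.05. The pileup behind it, the number of overlapping ChIP fragments, was 13 in replicate 1 and 25 in replicate 3. The second region, at chr19:37411175-37411728 and 35.1 kb from the start site, was even across lists, with folds of 3.21, 3.49 and 3.39. It passed a q of 0.05 in replicates 2 and 3 only. Neither Kif11 region stayed shared when peaks had to overlap by at least 50% of both. Genes on chromosome 19 carried the most peaks per Mb of any chromosome, 24.5 ± 6.26 (SD, n = 3 libraries) over all its protein-coding genes, beside 44.0 in each library for Kif11. Of all chromosome 19 genes, 22.8% had a shared region inside or within 3 kb. The part of the chromosome in the Kif11 result was not tested.

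Kif14, a kinesin of cytokinesis that works with citron kinase, had its shared region 34 bp past the end of the gene, at chr1:136555972-136556394 and 88.3 kb from the start site. The folds were 3.63, 4.46 and 3.50, with q-values of 0.0201, 0.000502 and 0.0430, and so the region passed 0.05 in every list. It stayed shared with summits within 100 bp but was lost when peaks had to overlap by at least 50% of both. Inside Kif14, 1 further peak was present in replicate 2 only. Kif23, also known as MKLP1, is the motor of the centralspindlin complex, which bundles microtubules at the midzone. Its region, at chr9:61914393-61914762, had folds of 6.66, 8.63 and 7.96 and ranked 71 of 5114 shared regions by fold over the 3 lists. Its q-values were 7.73e-10, 9.44e-16 and 3.63e-13, and its pileup was 21 fragments in replicate 1 and 24 in replicate 3. These were the highest folds among the 14 shared regions inside or within 3 kb of kinesin genes, except in replicate 1, where a region in Kif13a was higher. The Kif23 region lay 2.52 kb past the 3′ end of Kif23 and overlapped Rplp1, a gene for a ribosomal stalk protein, at chr9:61913283-61914510. By position the region was thus nearer to Rplp1 than to Kif23. Whether it acts on either gene was not tested.

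Other mitotic kinesins had peaks in fewer lists. Kif2c (MCAK), which takes microtubules apart at centromeres, had a region 5.46 kb from its start site with folds of 4.24 and 5.01 in replicates 1 and 2 and no peak in replicate 3. Kif4, a chromokinesin that acts on chromosome arms and the midzone, had one 62.5 kb in with folds of 5.45 and 4.14 in replicates 1 and 3. Kif2a, a depolymerising motor at spindle poles, held 2 regions found in replicates 1 and 3. Kif2b, a close relative and a gene of only 2.27 kb, had 1 peak in replicate 1, which gave it the highest mean density of its class, 147 ± 254 peaks per Mb (SD, n = 3). A single peak in a short gene sets that value, and its q was 0.0673. Kif20b, a kinesin of late cytokinesis on chromosome 19, had 1 peak inside in replicate 3 and 1 within 3 kb in replicate 1, at different places. The remaining 5 mitotic kinesins had no peak of any list inside or within 3 kb. They were Kif15, which can stand in for Kif11 at the spindle, Kif18a, which damps chromosome movement at alignment, Kif18b, which shortens astral microtubules, Kif20a (MKLP2), which brings the chromosomal passenger complex to the midzone, and the chromokinesin Kif22.

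**Figure D3:**
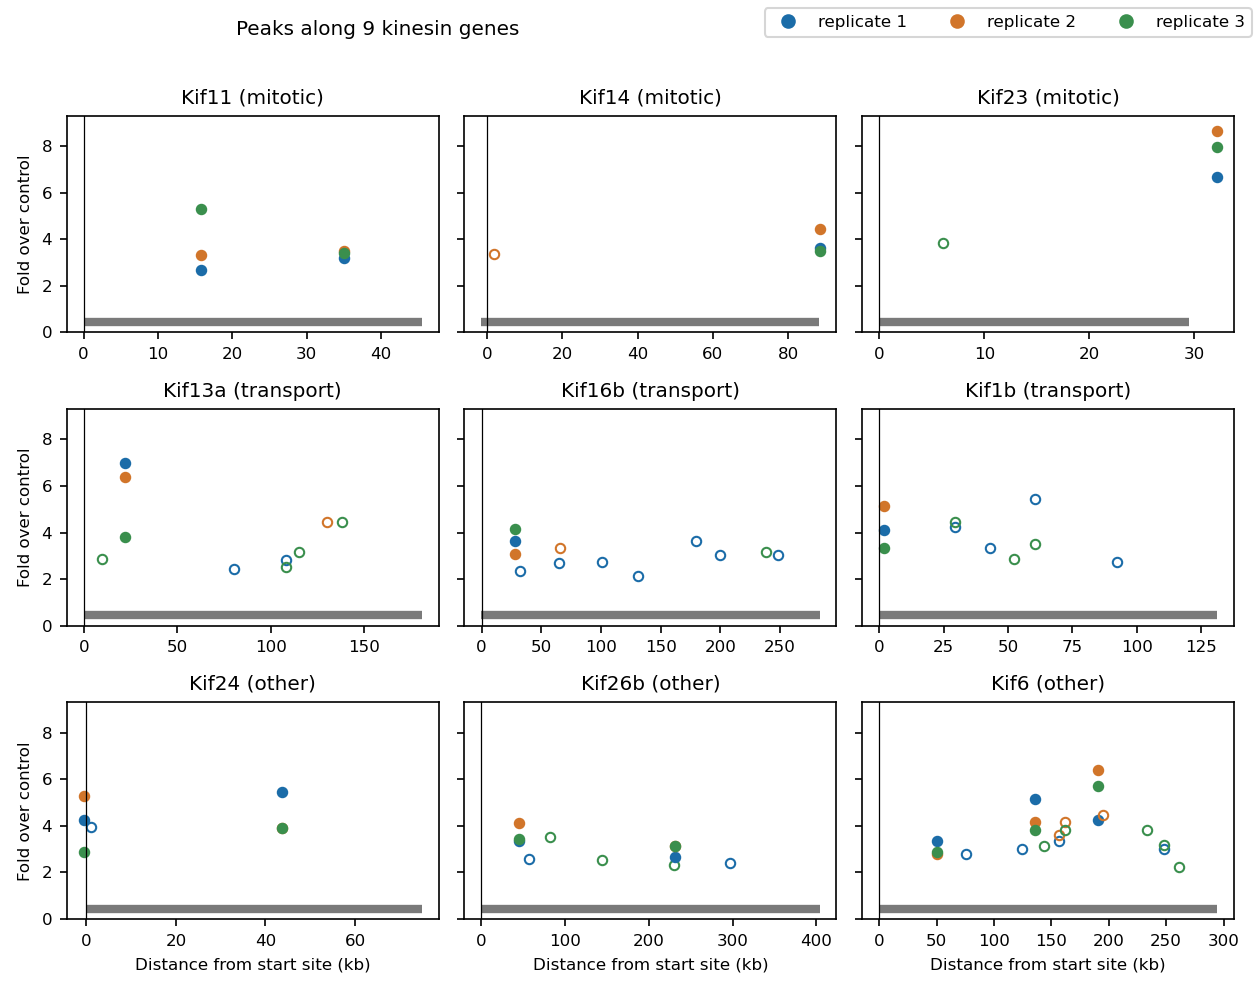
Peaks along the 9 kinesin genes with a shared region, as fold over control (vertical axis) against distance of the peak from the start site in kb (horizontal axis). Colours are replicates, filled points belong to shared regions, open points to regions of 1 or 2 lists, and the grey bar is the gene. The Kif23 points lie beyond the bar with folds of 6.66 to 8.63.

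Among transport kinesins, the shared regions were all inside genes, and the one in Kif1b was near its start. Kif1b carries mitochondria and synaptic vesicle precursors. Its region at chr4:149305913-149306197 lay 1.64 kb inside the gene from the nearer of its start sites, with folds of 4.10, 5.13 and 3.34 and q-values of 0.000133, 3.38e-07 and 0.0338. It passed 0.05 in every list. Kif1b held 5, 1 and 4 peaks in replicates 1, 2 and 3, and 2 more of its regions were found in replicates 1 and 3 but not 2, with folds of 5.45 and 3.50 at one and 4.24 and 4.46 at the other. The RefSeq promoter window of Kif1b, from 250 bases before the start site to 25 after it, is printed because it is the nearest to a shared region inside a kinesin gene. It is at chr4:149307674-149307948 on the minus strand of GRCm38.p6, reads 5′ to 3′ and was not overlapped by a peak.
Kif1b promoter: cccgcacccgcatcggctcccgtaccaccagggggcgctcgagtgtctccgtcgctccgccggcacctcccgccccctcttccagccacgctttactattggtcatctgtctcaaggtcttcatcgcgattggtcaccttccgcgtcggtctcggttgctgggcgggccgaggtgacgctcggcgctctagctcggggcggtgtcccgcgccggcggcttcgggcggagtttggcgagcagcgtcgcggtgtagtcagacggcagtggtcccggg
No ONECUT core as searched below was in it, and so it has no capitals.

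Kif13a, a motor of endosomes and of vesicles with the mannose-6-phosphate receptor, had its shared region 22.1 kb from the start site, at chr13:46907483-46907851. The folds were 6.98, 6.40 and 3.82, with q-values of 6.00e-12, 2.11e-09 and 0.0116. Replicate 3 was low here, although the region passed 0.05 in all lists, and its pileup was 25 fragments in replicate 1 against 11 in replicate 3. The region was no longer shared when summits had to lie within 100 bp. Kif16b, which moves early endosomes, had 8 peaks in replicate 1 but 2 each in replicates 2 and 3. Its shared region at chr2:142873573-142874020, 27.7 kb from the start site, had folds of 3.63, 3.07 and 4.14, and its q in replicate 2 was 0.368. It too was lost with summits within 100 bp.

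The transport genes with the most peaks per Mb had no shared region. Kif1c, a vesicle motor, held 4, 1 and 1 peaks, a mean of 63.3 ± 54.9 per Mb (SD, n = 3). A region 11.5 kb from its start had folds of 4.54 and 4.18 in replicates 1 and 2, and another at 29.9 kb had 3.94 and 4.14 in replicates 1 and 3. Every list therefore had a peak in Kif1c, but not in the same place. Kif3b, a subunit of the kinesin-2 motor of intraflagellar transport, held 1, 2 and 3 peaks, 47.6 ± 23.8 per Mb, and 1 region was found in replicates 1 and 2 with folds of 5.10 and 3.57. Kif3b also had the only promoter window of a member that any peak overlapped, in replicate 3, with a fold of 2.32 and a q of 0.757. Its fold was below the 3.18 that is the median of peaks inside kinesin genes in that list. The window, at chr2:153291166-153291440 on the plus strand, is printed for that overlap.
Kif3b promoter: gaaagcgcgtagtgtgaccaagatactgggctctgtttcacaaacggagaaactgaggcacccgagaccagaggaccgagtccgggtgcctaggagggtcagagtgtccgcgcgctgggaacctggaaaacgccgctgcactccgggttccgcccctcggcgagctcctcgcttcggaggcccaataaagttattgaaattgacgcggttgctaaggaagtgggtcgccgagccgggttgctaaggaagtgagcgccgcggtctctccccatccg
Neither ONECUT core was in this window. Kif1a, which carries synaptic vesicle precursors, and the conventional kinesin heavy chains Kif5a and Kif5b had no peak of any list inside or within 3 kb. Kif5c, the third heavy chain, had 2, 0 and 2 peaks and 1 region of 2 lists with folds of 2.37 and 2.32 in replicates 1 and 3. Kif3a, Kif3c, Kif13b and Kif17 had peaks in at most 2 lists and no region found in more than 1.

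Among the other kinesins, Kif6, Kif24 and Kif26b had shared regions. Kif6, which is needed for the cilia of ependymal cells, had the most, with 7, 6 and 8 peaks in replicates 1, 2 and 3 and 23.7 ± 3.39 peaks per Mb (SD, n = 3). Of its 3 shared regions, the one at chr17:49805421-49805773, 190 kb from the start site, had folds of 4.24, 6.40 and 5.73 and ranked 645. The one at chr17:49751060-49751407 had folds of 5.15, 4.18 and 3.82, and both passed a q of 0.05 in every list. The one at chr17:49665552-49665956 had folds of 3.33, 2.79 and 2.87 and passed it in none. Further regions of 2 lists in Kif6 lay 157 kb, 161 kb and 248 kb from the start, each in a different pair of lists. At least 6 peaks of every list were thus in Kif6.

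Kif24 keeps cilia from forming by acting on the microtubules of the mother centriole. Its shared region inside, at chr4:41420726-41421522 and 43.7 kb from the start site, had folds of 5.45, 3.90 and 3.91 and passed a q of 0.05 in every list. The other, at chr4:41465291-41465661, lay upstream, with its middle at -0.628 kb from the start site, and had folds of 4.24, 5.29 and 2.87. Its q-values were 0.00120, 3.62e-06 and 0.404, so replicate 3 was the weak library. This was the nearest shared region to the start site of a kinesin gene, but it also lay inside Nudt2, a nucleotide hydrolase gene at chr4:41465081-41480926, 328 bp from the start site of Nudt2. The Kif24 promoter window, at chr4:41464824-41465098 on the minus strand, ends short of that region and is printed as the sequence beside it.
Kif24 promoter: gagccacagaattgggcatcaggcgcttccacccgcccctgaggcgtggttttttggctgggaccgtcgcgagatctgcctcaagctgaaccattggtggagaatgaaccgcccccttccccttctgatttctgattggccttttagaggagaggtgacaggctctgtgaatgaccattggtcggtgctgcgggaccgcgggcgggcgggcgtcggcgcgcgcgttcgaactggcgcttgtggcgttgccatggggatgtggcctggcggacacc
Kif26b, an atypical kinesin of noncanonical Wnt signalling and kidney development, is the longest member at 404 kb and held 4, 2 and 5 peaks. Its shared region at chr1:178573314-178573735 had folds of 3.33, 4.13 and 3.42. The one at chr1:178760122-178760501 had 2.68, 3.14 and 3.13, ranked 4940 of 5114, and passed a q of 0.05 in no list. Kif21a, which restrains microtubule growth at the cell cortex, had 3, 0 and 4 peaks, 19.9 ± 17.8 per Mb, and no shared region. Kif9, Kif21b, Kif27 and Kif28 had 1 peak each, in 1 list. Kif7, a Hedgehog regulator at the tip of the cilium, Kif19a, which limits the length of cilia, Kif12 and Kif26a had no peak of any list inside or within 3 kb. Kif7 had none within 100 kb either. Kif7 and the mitotic Kif22 lie on chromosome 7, whose genes had only 4.66 ± 2.15 peaks per Mb (SD, n = 3 libraries), and the part of the chromosome in this was not tested.

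Across the 14 shared regions inside or within 3 kb of kinesin genes, folds were close to those of shared regions at large. The lowest, median and highest fold was 2.68, 3.87 and 6.98 in replicate 1, 2.79, 4.16 and 8.63 in replicate 2, and 2.87, 3.66 and 7.96 in replicate 3. They lay above the list's own median for shared regions at 7, 6 and 4 of the 14. A q of 0.05 was passed by 9, 11 and 11 of them, by 7 in all lists and by 2 in none. Of all peaks in the lists, shared or not, 33.6%, 71.0% and 47.7% passed it in replicates 1, 2 and 3. That is an unlike set, as shared regions have higher folds. The share of all shared regions that passed it was not counted. With peaks limited to q of at most 0.05, 6 members kept a shared region (15.8%), against 7.55% of all genes. With peaks limited to a fold of at least 5, 1 member remained, Kif23 (2.63%), against 1.48%.

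**Figure D4:**
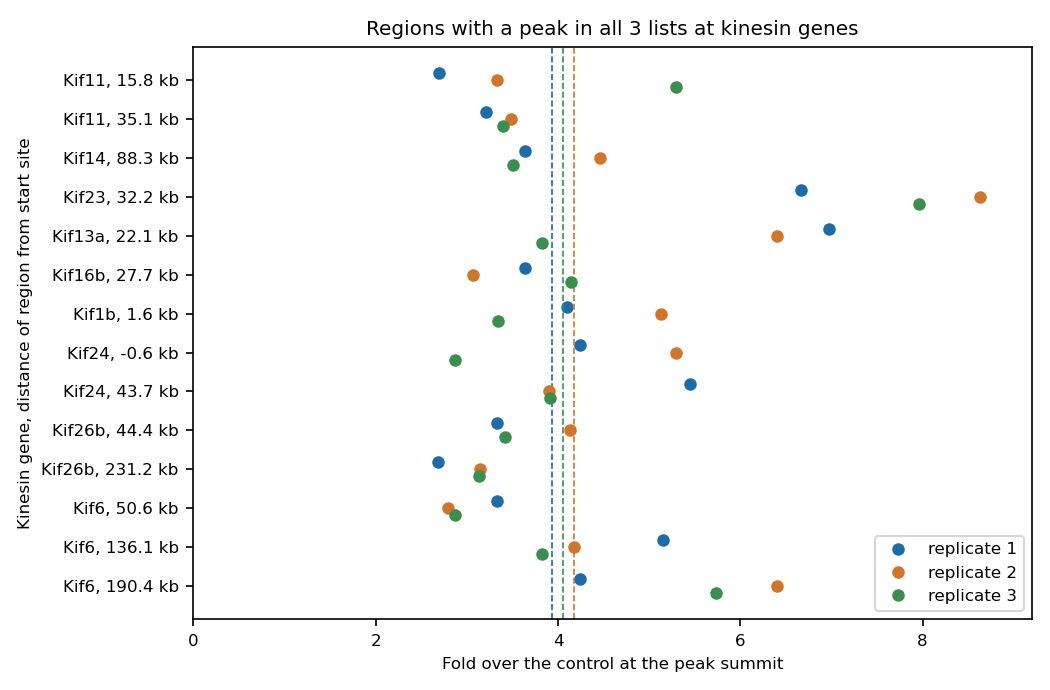
Fold over the control at the summit (horizontal axis) in replicates 1, 2 and 3 for the 14 shared regions at kinesin genes (rows, with the distance from the start site). Dashed lines give each list's median over all shared regions, 3.94, 4.18 and 4.05, and Kif23 is the only region with all 3 folds above 6.

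All peaks inside kinesin genes, shared or not, numbered 51, 22 and 48 in replicates 1, 2 and 3. Their median fold was 3.03, 4.02 and 3.18, beside 3.03, 3.87 and 3.22 for peaks inside all genes. They merged into 84 regions, of which 58 were in 1 list, 15 in 2 and 11 in all 3 (13.1%), where 11.4% of regions inside all genes were shared. By class, 2 of 12 regions were shared in mitotic, 3 of 41 in transport and 6 of 31 in other kinesins. The pileup behind a peak inside a kinesin gene had a median of 10 fragments in replicate 1 and in replicate 3, with ranges of 7 to 25 and 6 to 25. A typical peak in a kinesin gene thus rests on few fragments.

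Mitotic and transport kinesins were compared by peaks per Mb, which takes the length of the genes into account. Inside genes, mitotic kinesins had 15.5, 6.90 and 12.1 peaks per Mb in replicates 1, 2 and 3, and transport kinesins 20.5, 6.30 and 15.8. Mitotic kinesins were lower in replicates 1 and 3 and slightly higher in replicate 2. The mean was 11.5 ± 4.34 against 14.2 ± 7.22 (SD, n = 3), a difference of -2.68 ± 2.91 (exact two-sided sign-flip permutation test over the 3 libraries, p = 0.5). With 3 libraries this test cannot go below 0.25, and the difference was smaller than its spread. Over all protein-coding genes the density was 10.6 ± 4.16. Without Kif11 and Kif20b, the members on chromosome 19, mitotic kinesins had 9.02 per Mb and the difference was -5.17 ± 2.73 (exact test, p = 0.25). With the 3 kb on each side counted in, the difference turned to 0.325 ± 2.48 (exact test, p = 1), so its direction rests on the window.

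In the 3 kb flanks themselves, mitotic kinesins had 3, 2 and 2 peaks in replicates 1, 2 and 3 and transport kinesins had none in any list. The mean difference was 29.9 ± 7.40 per Mb (exact sign-flip test, p = 0.25), with all genes at 16.5, 8.99 and 14.0. The mitotic peaks were those at Kif14 and Kif23 in each list and at Kif20b in replicate 1, which makes it a matter of 3 genes. From 3 to 100 kb away, mitotic kinesins had 13.5, 7.93 and 14.7 peaks per Mb and transport kinesins 13.1, 2.78 and 7.53. Mitotic kinesins were higher in each library, by 0.397, 5.15 and 7.14, a mean of 4.23 ± 3.46 (exact sign-flip test, p = 0.25). Without Kif11 and Kif20b, on chromosome 19, the differences were -2.31, 3.78 and 4.18, a mean of 1.89 ± 3.64 (exact sign-flip test, p = 0.5), so the direction in replicate 1 rests on those genes. All genes had 13.3, 5.99 and 10.5 peaks per Mb in this zone.

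**Figure D5:**
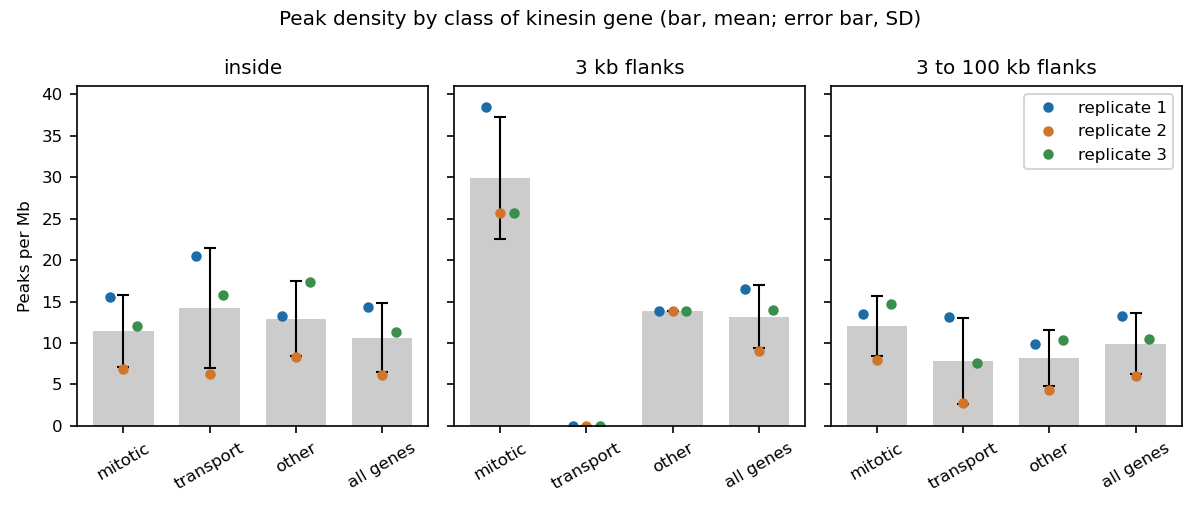
Peaks per Mb (vertical axis) inside genes, in the 3 kb flanks and from 3 to 100 kb away for mitotic, transport and other kinesins and all protein-coding genes. Bars are means, error bars SD and points replicates 1, 2 and 3. Transport kinesins had no peak in the 3 kb flanks, and inside genes the mitotic and transport points overlap.

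Within 100 kb, 17 of 38 kinesin genes had a shared region (44.7%), against 40.6% of all genes, with 7 mitotic, 5 transport and 5 other members. A binding score that weighs each shared region by its distance, with 0.607 for 1 region inside the gene, had a median of 0 in the family and of 0 over all genes. Its upper quartile was 0.532 in the family and 0.134 over all genes. The highest scores were 1.82 for Kif6, 1.29 for Kif11, 1.21 for Kif26b and 1.20 for Kif24. In the mitotic class Kif18b came next with 0.614, and in the transport class Kif1b led with 0.635, followed by Kif13a and Kif16b with 0.607 each. Kif18b, with no peak of its own, reached that score from 4 shared regions 11.1 to 64.9 kb away. The median moved to 0.275 without replicate 2. A region anywhere inside a gene counts at distance 0 in this score, so long genes can gather more of it. With distance taken from the nearer gene end instead, it was 0.0806 for Kif6, 0.104 for Kif26b, 0.251 for Kif13a and 0.201 for Kif16b. By that form Kif11 had 0.812, Kif24 0.775, Kif18b 0.614 and Kif1b 0.598.

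The 31 shared regions within 100 kb of a member were 11 inside, 3 within 3 kb and 17 farther away, and each was counted for 1 member. Of the 17, 13 lay nearer to another protein-coding gene. The one 21.7 kb from Kif2a, with folds of 6.36, 7.24 and 6.69, was 14 bp from Ipo11, a nuclear import receptor gene, and overlapped its promoter window. Those near Kif19a lay inside Ttyh2, and the stronger had folds of 7.87, 7.72 and 5.41. The strongest of those near Kif18b had folds of 5.61, 6.52 and 5.36 and was nearer to Dcakd. A distal region of Kif1b overlapped the promoter window of Pex14, a peroxisome gene, and 2 near Kif11 lay inside Ide, the gene of insulin-degrading enzyme. The 4 for which the kinesin was the nearest gene were at Kif12 (9.38 kb), Kif5c (18.4 kb), Kif18a (40.8 kb) and Kif20b (49.6 kb). Beyond 3 kb, most of the shared regions thus lay closer to a neighbour than to the kinesin, while all 11 inside a kinesin gene were nearest to it. Of the 3 within 3 kb, 2 were nearer to another gene. They were those at Kif23 and Kif24, which overlapped Rplp1 and Nudt2.

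Promoter windows of the family were searched for the ONECUT cores ATTGAT, which reads ATCAAT on the other strand, and ATCGAT, which reads the same on both. ATTGAT shares its first 4 letters with ATTGG, the CCAAT box read on the other strand. The RefSeq table held 35 windows for 31 members, each from 250 bases before a start site to 50 after it, and a longer list of 32851 windows for all genes. Kif5a, Kif5b, Kif13b, Kif19a, Kif20a, Kif21b and Kif28 were not matched. ATTGAT or ATCAAT was in 2 of the 35 windows (5.71%), beside 7.54% of all windows. ATCGAT was in 0 of 35, beside 0.925%. The median GC content was 62.3% in kinesin windows and 52.7% in all. No shared region overlapped any of the 35 windows. The windows with the core were those of Kif2b and Kif4, and both are printed with the core in capitals. The Kif2b window is at chr11:91577531-91577805 on the minus strand, with the core starting 1 base before the start site.
Kif2b promoter: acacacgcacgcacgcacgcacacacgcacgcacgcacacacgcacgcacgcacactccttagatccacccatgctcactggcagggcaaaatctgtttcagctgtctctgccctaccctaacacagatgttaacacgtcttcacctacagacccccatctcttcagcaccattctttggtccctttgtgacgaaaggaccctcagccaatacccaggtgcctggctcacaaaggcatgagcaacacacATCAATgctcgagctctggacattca
The Kif4 window is at chrX:100625815-100626089 on the plus strand, with the core starting at base 15 of the transcript.
Kif4 promoter: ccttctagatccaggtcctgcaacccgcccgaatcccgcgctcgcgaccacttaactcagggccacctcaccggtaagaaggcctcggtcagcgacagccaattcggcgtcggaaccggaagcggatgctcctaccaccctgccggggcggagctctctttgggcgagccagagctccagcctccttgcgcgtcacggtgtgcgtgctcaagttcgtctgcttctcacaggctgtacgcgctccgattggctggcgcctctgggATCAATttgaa
Neither window was overlapped by a peak of any list. A match here describes letters and not a bound site.

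Lists of related genes were counted in the same way, beside 11.5% of all genes with a shared region inside or within 3 kb and 5.32% with one at an end. Of 6 kinesins and kinesin partners outside the family rule (Kifc1, Kifc2, Kifc3, Kifc5b, Kifap3 and Cenpe), none had a shared region inside or within 3 kb. Of 15 partners of mitotic kinesins, 1 did (6.67%), citron kinase (Cit), which had it inside, and none had one within 3 kb of an end. Of 16 kinesin light chains and cargo adaptors, 4 did (25%). The one at an end (6.25%) was Klc2, a kinesin light chain on chromosome 19, with folds of 2.67, 2.49 and 2.19. Of 19 dynein and dynactin genes, which drive transport in the opposite direction, 3 did (15.8%). The 2 at an end (10.5%) were Dctn6, a dynactin subunit, with folds of 6.47, 6.57 and 5.75, and Pafah1b1, the dynein regulator Lis1, with 3.94, 3.90 and 4.46.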

How the data were processed

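ChIP-Seq libraries of p53 KO MEFs were precipitated with anti-FLAG antibody, and the 3 ONECUT3-OE replicates have the lists used. GRCm38 as build and MACS2 2.1.0, Bowtie2 2.2.6 and deepTools 3.3.2 as tools come from the submitters' processing notes, which give no role for each, with read filters not given in the sources used here. Names in the lists show that peaks were called in each library alone with the input as control. The authors deposited for every peak a score, a fold (a ratio of pileup to background, 1 added to both), a −log10 p-value and a −log10 q-value. These move with depth, which is unknown, and values of different lists set beside each other above were not corrected for it. From fold and p, whole pileups were solved for (tolerance 0.001 in −log10 p) at 100% of peaks inside kinesin genes in replicates 1 and 3 and 0% in replicate 2.

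Peaks overlapping by at least 1 bp were merged. Distances ran to RefSeq gene bounds (GRCm38.p6), windows were 3 and 100 kb, and the score summed exp(-(0.5 + 4 x distance / 100 kb)). Exons were not used, so exonic or intronic position is not given. Lists were described beside all genes without a test, and classes were compared by an exact sign-flip permutation test over libraries. Members, classes and lists were chosen with earlier results of these data known. Named are members with a shared region inside or within 3 kb, those without any peak there, the 2 per class with the most peaks per Mb or the highest score, and partner genes with a shared region at an end; others named were chosen after their values were seen. Alternatives varied thresholds, overlap, windows, classes and replicates; leaving out chromosome 19 members and counting from start sites were added after seeing the data. On simulated data, 200 of 200 planted genes and 500 of 500 pileups were recovered. The planted peaks overlapped closely in all lists, and the pileups came from the formula that solves them. This checks the code only and says nothing of real peaks. The work used scipy 1.17.1, pandas 2.3.3, numpy 2.4.6 and matplotlib 3.10.9 under Python 3.11.15.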

Additional observations from a re-analysis of the deposited data

How the results depend on the processing

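Shared regions inside kinesin genes, 11 as reported, were 5 with q of at most 0.05, 5 with summits within 100 bp, 7 with overlap of at least 50% of both peaks, and 0 with −log10 q or fold of at least 5. Leaving out each replicate gave 12 to 21. Members with a shared region within 3 kb of an end, 4 as reported, were 1 with −log10 q or fold of at least 5, 2 with a 1 kb window, 2 counted from RefSeq start sites, and 4 to 6 with a replicate left out. Those with one inside or within 3 kb, 9 as reported, were 1 under either strict threshold and 9 to 14 with a replicate left out. Those with one within 100 kb, 17 as reported, were 5 under either strict threshold and 20 to 24 with a replicate left out. The median score, 0 as reported, was 0.0416 to 0.275 with a replicate left out. The difference between mitotic and transport kinesins, -2.68 peaks per Mb as reported, turned to 0.412 with a fold of at least 5 and to 0.325 with the 3 kb flanks counted in, and was -4.32 to -1.54 with a replicate left out. Stricter thresholds leave fewer peaks by construction, and a region required in 2 lists is easier to share than one required in 3. For the difference between classes the cause was not tested. The other 40 values for these results were within 1.5 times the count, within 1 SD or on the same side. That SD, 0.249, was over the median scores of the 3 lists each used alone, and stricter settings could only leave a median of 0 at 0. Being on the same side does not mean being of the same size. The difference between classes was only -0.240 with q of at most 0.05 and -0.163 with −log10 q of at least 5. Kif23 kept its region in 9 of 10 alternatives, losing it with a 1 kb window, and Kif11 and Kif16b kept one in 6 of 10. Leaving out a replicate or widening the window mostly loosens the call, and a 1 kb window cannot drop a region inside a gene. Kif11 and Kif16b lost all of theirs at q of at most 0.05 and at −log10 q or fold of at least 5. Kif11 also lost them with overlap of at least 50% of both peaks, and Kif16b with summits within 100 bp. No paired analysis was possible because peak lists of only 1 group were used, so no condition could be set against another; the difference between gene classes was taken within each library. Low pileups, and a depth that is not known, limit what can be said of regions missing from 1 list.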
